A study of Mus musculus with 2 samples.

Results

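Classical monocytes of the lung were described in mice that carried a 4T1 tumor, with and without cargo-free nanoparticles (NPs) of poly(lactide-co-glycolide), a biodegradable polymer abbreviated PLG. The cells were chosen by their own RNA counts, so the genes of the rule are a description of the choice and not a result. Barcodes were kept as cells where 500 to 5000 genes were seen and mitochondrial genes gave less than 7.5% of the counts. A cell counted as a classical monocyte if it held at least 1 unique molecular identifier (UMI, 1 captured RNA molecule) of Csf1r, at least 5 of Lyz2 and at least 2 of Ccr2. It also had S100a8 and S100a9 under 5% of its UMIs, and low sums of C1qa, C1qb and C1qc (under 10), of the alveolar macrophage genes Marco, Krt79, Plet1, Atp6v0d2 and Fabp1 (under 5), and of the dendritic cell genes Flt3, Zbtb46, Xcr1, Clec9a, Cd209a, Fscn1 and Ccl22 (under 4). The sum of Ace, Treml4 and Cd300e, genes of non-classical monocytes, was under 2. The rule found 1291 classical monocytes among 16995 cells, 545 of 8662 in the saline library and 746 of 8333 in the NP library.

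Both groups were female BALB/cJ mice of 12 weeks, inoculated with 100000 cells of 4T1, a mouse line of triple-negative breast cancer that seeds the lungs. The methods text names the line 4T1-luc2-tdTomato, which carries a luciferase and a red fluorescent reporter. They received 5 intravenous doses of saline or of PLG nanoparticles, 3 days apart from day 1, and the lungs were taken on day 14. Per the labels, the lungs of 4 mice were pooled into 1 library per group (the methods text gives another number of mice), and red cells were lysed before capture. Every mouse carried a tumor, and no mouse received another particle. With 1 library per group there were no replicates, no test was run, and the effect of the NPs cannot be told apart from that of the pool of mice or of the library. Intervals in brackets are 95% intervals for counting error only.

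Classical monocytes leave the bone marrow through the chemokine receptor CCR2, circulate for a short time, and enter inflamed tissue and tumors, where they can become macrophages or monocyte-derived dendritic cells. In mice they carry high levels of the surface protein Ly6C. Interferon-gamma drives in these cells a set of GTPases, the guanylate-binding proteins (GBPs) and the immunity-related GTPases (IRGs), together with antigen presentation, while type I interferons drive antiviral genes.

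In these cells many of the highest ratios between the libraries were those of interferon-inducible genes. GBPs, IRGs, the chemokines Cxcl9 and Cxcl2, several genes of major histocompatibility complex (MHC) class I presentation and Ly6c2 itself were higher in the NP library. The acute-phase genes Saa3, Lcn2 and Lrg1 and the chitinase-like gene Chil3 were higher in the saline library. The lists of ribosomal and cell cycle genes had nearly the same level in both. So had the receptor Ccr2, but it is a gene of the rule and its level is not a result. Among 8546 genes measured, which had at least 100 UMIs over both libraries, the median log2 ratio of NP over saline was -0.04, with quartiles of -0.18 and 0.09.

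The depth of these cells was alike in the 2 libraries. The saline cells held a median of 15724 UMIs (4314 to 30600) and the NP cells 16627 (2419 to 32159). Median detected genes were 3644 and 3659.5, and median mitochondrial shares were 3.55% and 3.37%. The summed totals, to which counts were scaled as UMIs per 1000000 (CPM), were 8803902 and 12696342 UMIs. The libraries shared 21 barcodes among all cells and 0 among the classical monocytes.

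As a share of all cells, classical monocytes made up 6.29% (5.79 to 6.82) of the saline library and 8.95% (8.35 to 9.59) of the NP library. The NP share was 1.42 times the saline share, a log2 ratio of 0.51, and the intervals did not overlap. Among all monocytes that passed the same gates the order was the other way round. Classical monocytes were 69.4% (66.1 to 72.6) of 785 such cells in saline and 49.2% (46.7 to 51.8) of 1516 in NP. Non-classical monocytes, with Ccr2 under 2 and at least 2 UMIs of Ace, Treml4 and Cd300e, were 0.462% and 3.52% of all cells. Classical monocytes were thus a larger part of the lung cells of the NP library and a smaller part of its monocytes. A share of all cells also moves with the number of every other cell captured.

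The label was checked on 5 markers, of which the rule used only Ccr2. Ccr2, the receptor for CCL2, was at 1729.9 CPM in saline and 1691 in NP, with a log2 ratio of -0.03. F13a1, the A chain of coagulation factor XIII, was at 557 and 674 CPM, a log2 ratio of 0.28. Vcan, the matrix proteoglycan versican, was at 145 and 174 CPM (log2 0.26). Fn1, fibronectin, was at 959 and 936 CPM (log2 -0.04). Ly6c2, the gene of the Ly6C protein, was at 545 CPM in saline and 1145 in NP. The 4 markers outside the rule were far above their level in B cells of the same libraries, which should lack them. In B cells F13a1 was at 0.614 and 0.802 CPM, Vcan at 0.921 and 1.07, Fn1 at 1.23 and 2.67, and Ly6c2 at 43.9 and 39.0. The nearer comparison is with intermediate monocytes, which met the same rule but held at least 2 UMIs of Ace, Treml4 and Cd300e. In these cells F13a1 was at 191 and 152 CPM, Vcan at 75.8 and 65.7, Fn1 at 364 and 270 and Ly6c2 at 185 and 499. All 4 were lower there than in classical monocytes of the same library, but Ly6c2 in intermediate monocytes of NP was near its level in classical monocytes of saline. With every cell thinned to 2000 UMIs, Ly6c2 had a UMI in 51.4% of saline and 80.3% of NP classical monocytes, against 3.01% and 2.98% of B cells, whose median depth was 4534.5 and 4529 UMIs.

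Cells close to the limits of the rule were few for Ccr2 and many for the non-classical genes. The median cell held 27 UMIs of Ccr2 in both libraries, 2 NP cells sat at exactly 2 UMIs, and 4 NP cells lay just outside with 1. A single UMI of Ace, Treml4 or Cd300e was present in 118 saline and 157 NP members, and 52 and 78 cells with 2 such UMIs lay just outside. Ly6c2 in the cells just inside was at 437 CPM in saline and 1016 in NP, and just outside at 327 and 764. The cells at this border thus had less Ly6c2 than the members as a whole in both libraries. S100a8 and S100a9 made up 4 to 5% of UMIs in 4 saline and 3 NP members, and 5 to 6% in 6 and 2 cells just outside. Those members had more Ly6c2 than the whole, at 650.4 and 1515 CPM.

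Genes of other cell types were present in these cells at levels that differed by cell type. Neutrophil markers summed to 317 CPM in saline and 286 in NP, led by Mmp8, and 322 and 423 members held at least 3 such UMIs. Whether these UMIs came from neutrophils or from the monocytes themselves was not tested. B cell markers, led by Ighm, summed to 87.2 and 141 CPM, with 70 and 158 members at 3 UMIs or more. Dendritic cell markers summed to 11.02 and 6.85 CPM, with Xcr1 and Ccl22 at 0 in both libraries, but the rule itself had limited many of these genes, as it had those of alveolar and interstitial macrophages. Epithelial markers, led by Scgb1a1, summed to 371 and 44.8 CPM, and red cell genes, led by Hbb-bs, to 947 and 151. Endothelial markers, led by Calcrl, summed to 17.7 and 31.8 CPM. Markers of T and NK cells, led by Gzma, summed to 41.9 and 18.0 CPM. Of the UMIs of Scgb1a1 in saline members 90.1% were in 1 cell, and 70.4% of those of Gzma. Hba-a1, Hba-a2, Hbb-bs and Hbb-bt each had 43.6 to 81.7% of their saline and 76.4 to 89.5% of their NP UMIs in 1 cell. The list of non-classical monocyte genes, led by Nr4a1, summed to 932 and 1109 CPM, with none of 7 measured genes past the fold. The rule itself had limited Ace, Treml4 and Cd300e of this list. Alveolar macrophage, interstitial macrophage, basophil, fibroblast and platelet markers each summed to under 10 CPM in both. From Camp, a neutrophil granule gene abundant in empty droplets, free RNA of the same composition as in empty droplets could make up 0.382% of the saline and 0.281% of the NP UMIs of these cells, if all of their Camp came from it. An estimate scaled on epithelial and fibroblast genes was higher, at 0.723% and 0.677%.

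At a log2 ratio of 1 or more, 71 of the 8546 genes (0.831%) were higher in NP, and at -1 or less 36 (0.421%) were lower. Of these, 11 higher and 10 lower genes had over 20% of 1 library's UMIs in a single cell, counted only in libraries with at least 20 UMIs of the gene. Of the 71 higher genes, 21 were among the 64 measured genes on the lists of GBPs, IRGs, type I interferon genes and interferon regulators. The plot of all genes shows a narrow cloud around 0 with single genes well above and below it.

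**Figure D1:**
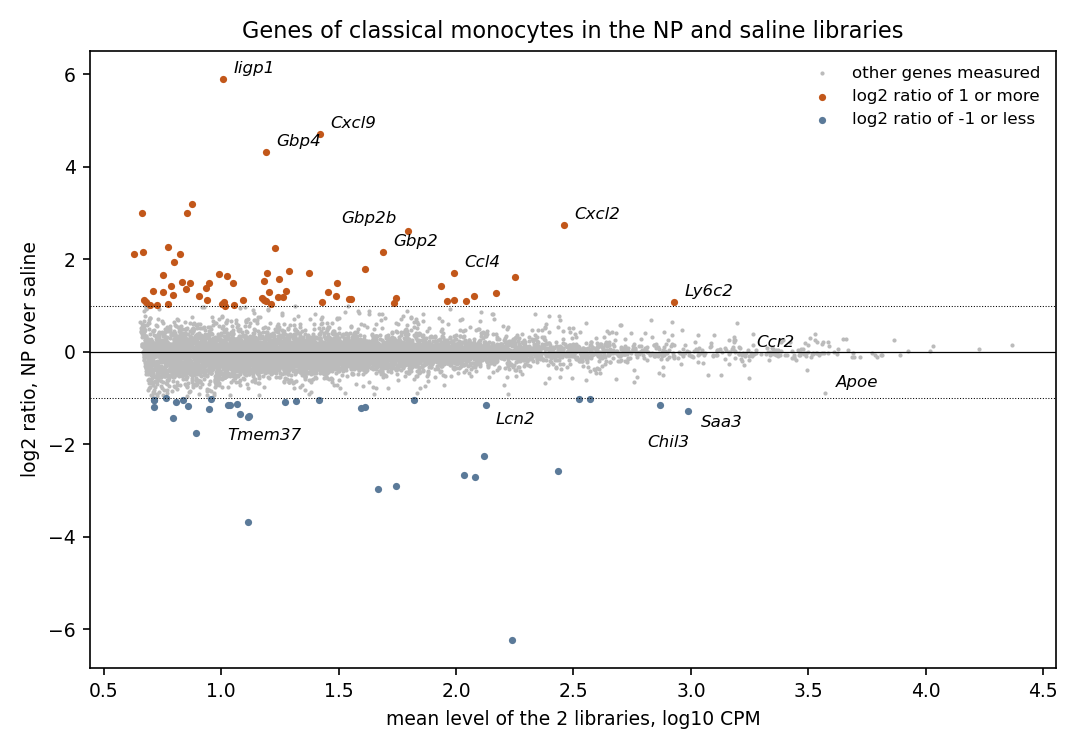
Each point is 1 of 8546 genes in classical monocytes. The horizontal axis is the mean level of both libraries in log10 CPM, the vertical axis is the log2 ratio of NP over saline, and the dotted lines mark 1 and -1. The 71 genes above the upper line (orange) include Iigp1, Cxcl9, Gbp4 and Cxcl2, and the 36 below the lower line (blue) include Saa3 and Chil3. Ccr2, a gene of the rule, lies near 0.

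The GBPs coat and break open vacuoles of microbes. Of 11 listed members 7 were measured, 6 of them were higher in NP at the fold set, none was lower, and the median log2 ratio was 1.57 against -0.04 for all genes. The summed level of the list was 142 CPM in saline and 439.6 in NP. Gbp2 (ENSMUSG00000028270, chr3:142620602-142638008, plus strand, GRCm38) was counted at 158 UMIs or 17.9 CPM in saline and 1011 UMIs or 79.6 CPM in NP. Its log2 ratio was 2.15 (1.91 to 2.40). Gbp2b, its neighbor, was at 17.5 CPM in saline and 107 in NP, with a log2 ratio of 2.61 (2.37 to 2.86). Reads of these similar genes may be split uncertainly between them. Gbp2 had a UMI in 18.2% of saline and 48.7% of NP cells, so the difference was seen in the number of cells as well as in the sum. Gbp4 was counted at 13 UMIs in saline and 374 in NP, or 1.48 and 29.5 CPM (log2 4.32). Gbp5 was at 8.86 and 26.4 CPM (log2 1.57), Gbp3 at a log2 ratio of 1.17 and Gbp9 at 1.02. Gbp7 was below the fold at 0.81. Gbp6 and Gbp8 were under the limit of 100 UMIs, with 4 and 6 UMIs in saline and 92 and 57 in NP.

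The IRGs, which act on the same vacuoles, went the same way. All 5 measured of 9 listed genes were higher in NP, with log2 ratios from 1.05 to 5.90, and their sum was 105 CPM in saline and 283 in NP. Iigp1 had a UMI in 0 of 545 saline cells, which allows a share of cells with a UMI, not of cells expressing the gene, of up to 0.550%, and was counted 259 times in NP, at 20.4 CPM and in 9.65% of cells. With the saline count set to a floor of 3 UMIs it was 59.9-fold higher in NP, a log2 ratio of 5.90. The lower end of the interval for counting error was 5.595, and the log2 ratio at that floor was 4.86 without cells holding 3 UMIs of another lineage. Igtp (log2 1.49), Ifi47 (1.41), Irgm2 (1.12) and Irgm1 (1.05) lay closer together. No measured member of either GTPase family was lower in the NP library, and the genes under the limit of 100 UMIs have no ratio here.

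The promoters of these genes are shown because the members of the family moved together. They are RefSeq sequences of GRCm38.p6, from 250 bases before to 50 after the start, read 5′ to 3′ on the strand of the gene. The capitals mark the letters GAAANNGAA, the core of the interferon-stimulated response element (ISRE), here TTCNNTTTC on the other strand for both genes. The match begins 58 bases before the start of Gbp2 (chr3:142620413-142620712, plus strand) and 136 before that of Gbp2b (chr3:142594597-142594896, plus strand).
Gbp2: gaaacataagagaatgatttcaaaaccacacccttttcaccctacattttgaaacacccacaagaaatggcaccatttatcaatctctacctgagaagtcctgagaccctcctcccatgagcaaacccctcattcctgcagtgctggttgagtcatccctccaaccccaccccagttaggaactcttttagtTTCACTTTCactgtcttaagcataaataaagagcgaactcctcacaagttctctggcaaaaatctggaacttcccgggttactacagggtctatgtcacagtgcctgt
Gbp2b: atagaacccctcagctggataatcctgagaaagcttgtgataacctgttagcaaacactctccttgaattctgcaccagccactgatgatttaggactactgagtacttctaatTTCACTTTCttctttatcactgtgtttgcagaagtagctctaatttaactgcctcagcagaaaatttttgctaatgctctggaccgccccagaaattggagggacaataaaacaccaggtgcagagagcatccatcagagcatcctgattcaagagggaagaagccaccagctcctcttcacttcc
The same core was found on either strand in 5 of the 6 promoters of the measured GBPs in the table (5 of 7 genes matched), and in 8.56% of 32851 promoters of all genes. Among the 60 higher genes without a dominant cell, 48 had a promoter in the table, and 19 of their 62 promoters (30.6%) held the core. Among the 26 lower genes, 3 of 27 promoters (11.1%) held it, and among all genes measured 7.61% did. The lower genes Chil3 and Saa3 had it 58 and 125 bases before their starts, and the promoters of the higher genes Ly6c2 and Tap1 held none of the 3 motifs searched. The letters TTCNNNGAA, the gamma-activated sequence (GAS), were in 8.30% of all promoters and 6.64% of those of the genes measured. They were in 6.45% of the promoters of the higher genes and 7.41% of those of the lower genes. Of the promoters of the measured GBPs 2 of 6 held them. For the measured type I interferon genes it was 6 of 33 (18.2%), and for MHC class I presentation 2 of 21 (9.52%). A match of letters is a description of the sequence and not a bound site.

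Receptors and regulators of the interferon pathway did not move as a group. Of 16 genes, all measured, 2 were higher in NP at the fold, none was lower, and the median log2 ratio was 0.13. Irf1, a transcription factor made in response to interferon-gamma, was at 72.0 CPM in saline and 167 in NP, with a log2 ratio of 1.22 (1.09 to 1.35). Socs1, which blocks the receptor's kinases, was counted 24 times in saline and 109 times in NP (log2 1.66). Ifngr1, the ligand-binding chain of the interferon-gamma receptor, was at 702.5 CPM in saline and 479.8 in NP, a log2 ratio of -0.55 (-0.60 to -0.50). Its partner Ifngr2 had a log2 ratio of -0.15, and the type I receptor chains Ifnar1 and Ifnar2 had 0.23 and -0.02. The regulators Irf7 and Stat2 were at 0.55 and 0.53, and Socs3 at -0.39. Thus the highest values of the list were 2 interferon-induced regulators, and its lowest was a receptor chain.

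Antiviral genes of the type I interferon response had smaller ratios, spread over nearly the whole list. Of 36 measured of 41 listed, 34 had a ratio above 0, 8 were higher at the fold and none was lower, with a median of 0.63. Without cells holding 3 UMIs of another lineage, which left 182 saline and 235 NP cells, the median was 0.18 over the 27 genes still measured. Isg15, a ubiquitin-like protein, was at 70.5 CPM in saline and 150.5 in NP (log2 1.09). Ifi44 (1.11), Oasl2 (1.15), Ifi205 (1.11) and Phf11d (1.07) were also past the fold. Ifit2, Ifit3 and Rsad2 were past it too, with over 20% of the UMIs of 1 library in 1 cell. Ifi27l2a was at 1244 and 1914 CPM (log2 0.62) and Zbp1, a sensor of nucleic acids, at 110.0 and 179.6 (0.71). The interferon-induced membrane genes were the exception, with Ifitm1 at -0.39, Ifitm2 at -0.17 and Ifitm3 at 0.12. The ISRE core was in 18 of 33 promoters of the measured genes of this list (54.5%).

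**Figure D2:**
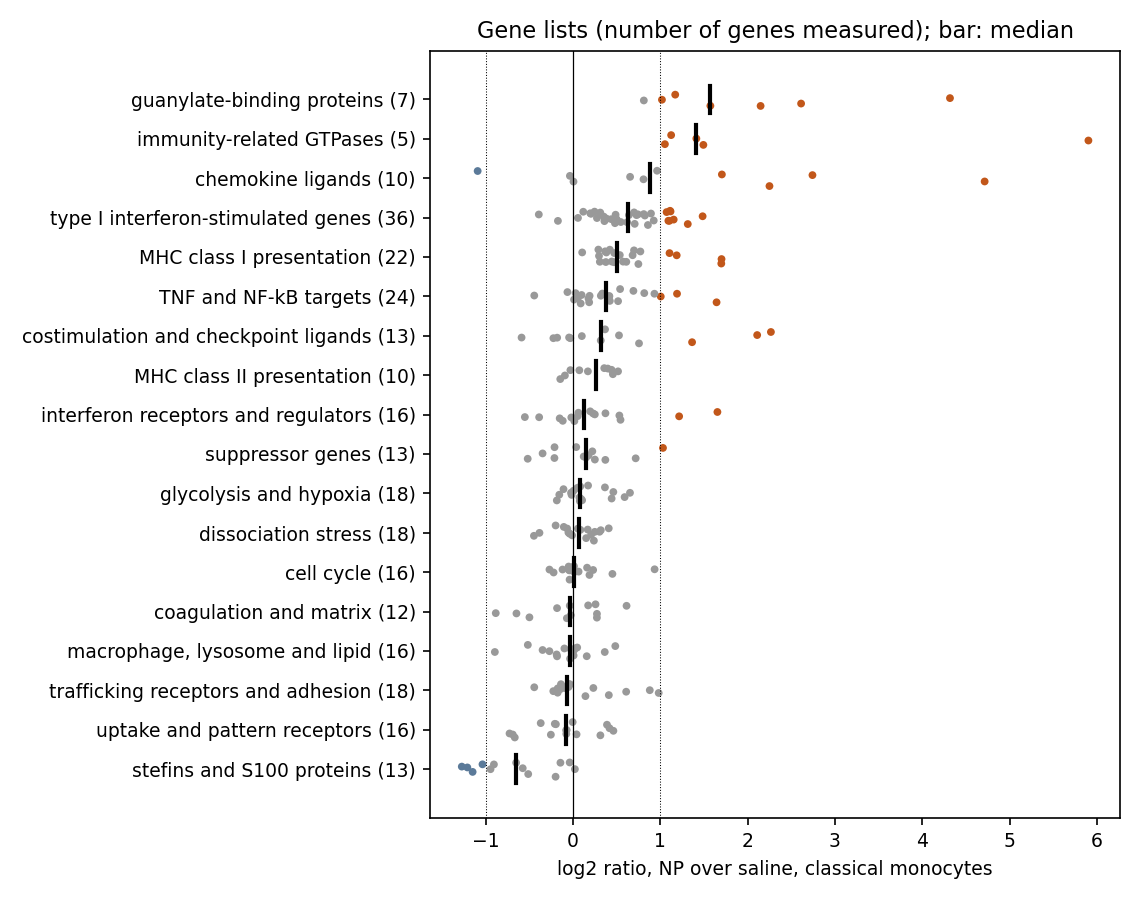
Each point is a measured gene of a list in classical monocytes, placed on the horizontal axis by its log2 ratio of NP over saline, and the black bar is the median of the list. Orange points are at 1 or more and blue points at -1 or less. GBPs have a median of 1.57 and stefins and S100 proteins of -0.65, while the medians of the cell cycle, stress and trafficking lists lie within 0.1 of 0.

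MHC class I presentation, which shows peptides from inside the cell to CD8 T cells, was higher in NP in all 22 listed genes, and all 22 were measured. The ratios ran from 0.11 to 1.70 with a median of 0.51, and 4 genes reached the fold. The list summed to 7517 CPM in saline and 10043 in NP. The heavy chain H2-K1 was at 519 CPM in saline and 834 in NP (log2 0.68), H2-D1 at 2862 and 3546 (0.31), and the light chain B2m at 1605 and 2085 (0.38). Tap1, a subunit of the peptide transporter, was at 58.2 and 125 CPM (1.11), and Nlrc5, the transcription activator of class I genes, at 10.7 and 24.3 (1.19). The other 2 past the fold were the class Ib genes H2-Q6 and H2-Q7, both at 1.70. These are near-identical copies whose reads can be split between them. The immunoproteasome subunits Psmb9 and Psmb8 were at 0.77 and 0.58.

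MHC class II presentation, which addresses CD4 T cells, differed less and none of its genes reached the fold. Of 12 listed, 10 were measured, 7 had ratios above 0, and the median was 0.27, or 0.44 without cells holding 3 UMIs of another lineage. The class II chains H2-Ab1, H2-Aa and H2-Eb1 had log2 ratios of 0.46, 0.40 and 0.52, the invariant chain Cd74 0.36 and the master regulator Ciita 0.44. The lysosomal protease Ctss was at -0.14. Most cells had few class II counts, as described with the single-cell values.

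Among 13 measured genes on a list of T cell costimulation, checkpoints and related immune signals, 3 were higher in NP at the fold. Cd274, the gene of PD-L1, was counted 18 times in saline and 125 times in NP, or 2.04 and 9.85 CPM, with a log2 ratio of 2.27 (1.55 to 3.07). Il18bp, a decoy for interleukin-18, was counted 22 and 137 times (log2 2.11), and Il27, a cytokine subunit, 35 and 130 times (1.37). Cd40 was at 0.76, Cd80 at 0.53 and Cd86 at 0.32, below the fold, and Icosl was at -0.59. The surface proteins Cd47 and Sirpa were at -0.03 and -0.04.

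Of 15 listed chemokine ligands 10 were measured, 4 were higher in NP, 1 was lower, and the median was 0.89, or 1.46 without cells holding 3 UMIs of another lineage. Cxcl2 (ENSMUSG00000058427, chr5:90903871-90905938, plus strand), a ligand of the neutrophil receptor CXCR2, was counted 657 times in saline and 6345 times in NP, or 74.6 and 499.8 CPM. The NP level was 6.70 times the saline level, a log2 ratio of 2.74 (2.63 to 2.86). Cxcl2 was also abundant in free RNA, which at the share set by Camp gives 3.52 of the 74.6 CPM in saline and 3.03 of the 499.8 in NP. At the higher estimate it gives 6.66 and 7.29 CPM. Ccl4, a chemokine that attracts T cells and monocytes, was at 45.9 and 149.7 CPM (log2 1.71). Cxcl9, which attracts T cells through CXCR3, was counted 17 times in saline, of which 94.1% were in 1 cell, and 644 times in NP. Cxcl10, of the same receptor, had 52 and 357 UMIs (log2 2.25), with 80.8% of those in saline in 1 cell. Ccl2 and Ccl3 were at 0.81 and 0.66, and Cxcl16 at 0.96. Ccl6 and Ccl9, the ligands with the most UMIs, were at 0.01 and -0.03. Ccl5 was lower (-1.09), with 46.2% of its saline and 55.6% of its NP UMIs in 1 cell. Cxcl1, Cxcl3, Ccl7 and Ccl12 were under the limit of 100 UMIs, with 11, 0, 1 and 1 UMIs in saline and 73, 32, 25 and 34 in NP.

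The promoters of Cxcl2 (chr5:90903649-90903948, plus strand) and Cxcl9 (chr5:92328030-92328329, minus strand) are shown as those of the chemokines with the largest ratios. The capitals mark a kappaB motif, the site type of NF-kB factors, in Cxcl2, where matches on both strands overlap and begin 97 and 96 bases before the start. In Cxcl9 they mark the ISRE core GAAANNGAA, which begins 175 bases before the start.
Cxcl2: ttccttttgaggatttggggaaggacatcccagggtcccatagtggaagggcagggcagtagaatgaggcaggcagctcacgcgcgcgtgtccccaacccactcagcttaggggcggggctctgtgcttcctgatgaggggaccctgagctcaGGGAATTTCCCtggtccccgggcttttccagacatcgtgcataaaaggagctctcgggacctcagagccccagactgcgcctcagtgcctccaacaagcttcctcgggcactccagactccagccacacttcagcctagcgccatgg
Cxcl9: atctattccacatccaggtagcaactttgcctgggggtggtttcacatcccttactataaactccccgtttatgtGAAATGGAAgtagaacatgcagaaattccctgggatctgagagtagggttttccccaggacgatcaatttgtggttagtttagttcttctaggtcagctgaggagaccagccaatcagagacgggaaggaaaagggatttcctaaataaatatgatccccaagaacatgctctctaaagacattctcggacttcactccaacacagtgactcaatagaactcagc
A kappaB match was in 8.46% of all promoters and in 10.4% of those of the genes measured. It was in 12 of 62 promoters of the higher genes (19.4%) and in 4 of 27 of the lower genes (14.8%). Of the promoters of class I presentation genes, 10 of 21 held it (47.6%).

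Targets of NF-kB, the factor of inflammatory signals, had modest ratios. Of 25 listed genes 24 were measured, 22 were above 0, 3 reached the fold, and the median was 0.37. Under the other settings tried the median ran from 0.18 to 0.55. Nfkbia and Tnfaip3, inhibitors that the pathway induces against itself, were at 0.82 and 0.69. The adaptor Traf1 was at 1.19, the survival gene Bcl2a1b, whose reads are shared with near-identical copies, at 1.65, and Ptgs2, an enzyme of prostaglandin synthesis, at 0.93. Il1b, interleukin-1 beta, was at 1528 CPM in saline and 1542 in NP (log2 0.01), and the adhesion molecule Icam1 at -0.44. The list therefore did not move evenly.

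Ly6c2 (ENSMUSG00000022584, chr15:75108158-75111970, minus strand) was the only one of the 5 markers past the fold. It was counted 4802 times in saline and 14535 times in NP, and its log2 ratio was 1.07 (1.02 to 1.12). At the share set by Camp free RNA gives 0.420 of its 545 CPM in saline and 0.740 of its 1145 CPM in NP. Reads may also come from its close paralog in the Ly6 cluster, which was not separated here. Of 15 measured further monocyte genes none was higher at the fold, and Chil3 was lower. Cd14, a receptor for bacterial lipopolysaccharide, was at 657 CPM in saline and 878 in NP (log2 0.42), and Plac8 at 3078 and 3669 (0.25). The lineage factors Spi1, Irf8 and Klf4 were at 0.00, 0.25 and -0.32. Ly6i was counted only 9 times in saline and 81 times in NP.

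Of 13 measured of 16 listed stefins, S100 and acute-phase genes, 12 had ratios below 0, 4 reached the fold of -1, none was higher, and the median was -0.65. Saa3, an inducible serum amyloid A (ENSMUSG00000040026, chr7:46711998-46715700, minus strand), was counted 12113 times in saline and 7232 times in NP, although the NP set held more cells. Its level was 1376 CPM in saline and 569.6 in NP, with a log2 ratio of -1.27 (-1.31 to -1.23). At the share set by Camp free RNA gives 5.72 of the saline CPM. Lcn2, a siderophore-binding protein, was at 184 and 83.0 CPM (log2 -1.15), of which that share gives 12.1 and 5.70. Stfa2 and Cstdc5, stefins that inhibit cysteine proteases and have near-identical copies, were at -1.04 and -1.21. At the same share free RNA gives 30.2 of the 55.0 CPM of Cstdc5 in saline and 8.31 of the 23.8 in NP, and 4.35 of 9.20 and 0.965 of 4.49 CPM of Stfa2. At the higher estimate it gives 57.0 CPM of Cstdc5 in saline, more than was counted, and 20.01 in NP, and 8.22 and 2.32 CPM of Stfa2, so the lower levels of both in NP could not be set apart from free RNA. S100a8 and S100a9, which the rule capped, were at -0.57 and -0.51. At the higher estimate free RNA gives 702 of the 2113 CPM of S100a8 in saline and 410 of the 1419 in NP. For S100a9 it gives 709 of 1386 CPM in saline and 365 of 972 in NP. The part of free RNA in these 2 ratios was not tested. S100a4, S100a6, S100a10 and S100a11 lay between -0.20 and 0.02. Several genes of this list are abundant in neutrophils. The neutrophil markers in the same cells summed to 317 CPM in saline and 286 in NP. Of 8 measured, 6 had ratios below 0 and 2 above, with none past the fold. Retnlg was at 40.4 CPM in saline and 23.5 in NP, Stfa2l1 at 22.5 and 14.3, and Cxcr2 at 16.8 and 14.0. The part of neutrophil RNA in the difference was not tested. With S100a8 and S100a9 held under 1% of UMIs the median of the list was -1.12, and with an estimated free RNA profile subtracted it was -0.19.

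Chil3, a chitinase-like protein made by monocytes and alveolar macrophages (ENSMUSG00000040809, chr3:106147554-106167564, minus strand), was at 1016 CPM in saline and 458 in NP, a log2 ratio of -1.15 (-1.20 to -1.10). Lrg1, a leucine-rich acute-phase glycoprotein, was at 448 and 222 CPM (-1.01). Fkbp5, a chaperone induced by glucocorticoids, was at 17.3 and 6.77 CPM (-1.35). Igfbp6, which binds insulin-like growth factor, was at 89.4 and 43.2 CPM (-1.05). The largest negative ratio among the genes named by the rule was that of Tmem37, at 18.9 and 7.09 CPM (-1.41). Galnt6, Hpgd, Net1, Acot1, Ggt5, Hist1h1d and Cd2 completed the 15 lowest, with ratios from -1.40 to -1.03. On the other side, Marcksl1, a membrane-bound actin regulator, was at 18.4 CPM in saline and 63.6 in NP (1.79), and Bcl2a1a at 4.66 and 14.96 (1.68). Sftpc, an alveolar surfactant gene, was at 8.97 and 30.01 CPM (1.74), and in free RNA at 1457 and 5411 CPM. Free RNA gives 5.57 and 15.2 CPM of Sftpc at the share set by Camp and 10.5 and 36.7 CPM at the higher estimate, more than was counted in either library.

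Genes of lipid handling and lysosomes did not move as a list, with a median of -0.03 over 16 of 20 genes and none past the fold. Their sum was 9167 CPM in saline and 6731 in NP, and most of that gap was Apoe. Apoe, the lipid carrier apolipoprotein E, was counted 42835 times in saline and 33248 times in NP, or 4865 and 2619 CPM, with a log2 ratio of -0.89 (-0.91 to -0.87). The cholesterol exporter Abcg1 was at -0.52 and the lipid receptor Trem2 at -0.35. Lysosomal Ctsb, Lamp2 and Npc2 lay at 0.02, 0.05 and 0.01.

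Receptors for uptake and for microbes had a median of -0.08 over 16 of 22 genes, and none reached the fold. Msr1, a scavenger receptor, was at 0.46, Tlr2 at 0.39 and Fcgr1, the high-affinity IgG receptor, at 0.31. C5ar1, the receptor of complement C5a, was at -0.73 and the inhibitory Fcgr2b at -0.67. Trafficking and adhesion genes, among them Ccr2 of the rule, had a median of -0.06 over 18 of 20. Fpr2, a receptor for formyl peptides and serum amyloid A, was at 0.98 and the integrins Itgal, Itga4 and Itgb2 lay between -0.11 and -0.07. In coagulation and matrix, 12 of 16 genes were measured and none reached the fold. Thbs1, thrombospondin, was at 283 CPM in saline and 432 in NP (0.61), and Tgfbi at 892 and 632 (-0.50).

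Genes linked to suppression of T cells had a median of 0.15 over 13 of 18 measured, and 1 reached the fold. That gene was Il1rn, the antagonist of interleukin-1, at 6.59 CPM in saline and 13.5 in NP (log2 1.03). Vegfa, a vascular growth factor, was at 0.72. Nos2, the inducible nitric oxide synthase, was counted 0 times in saline and 5 times in NP, and Ido1, which degrades tryptophan, was counted in neither library.

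How the cells varied among themselves was read after thinning each one to 10000 UMIs, which left 528 saline and 729 NP cells and set aside 17 shallower cells in each library. Ly6c2 had a median of 4 UMIs in saline (quartiles 1 and 8) and 10 in NP (6 and 15). Of the NP cells 80.7% were above the saline median. The whole distribution was displaced, and 28.7% of NP cells lay above 14 UMIs, the 95th percentile of saline. Class I presentation was similar in form, with medians of 73.5 and 96 UMIs and 84.1% of NP cells above the saline median. GBPs and IRGs together had medians of 2 and 4 UMIs, with 67.6% of NP and 33.1% of saline cells above the saline median, and reached 10 UMIs in 3.03% of saline and 23.2% of NP cells.

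Cxcl2, Ccl4 and Cxcl9, thinned in this way, were each seen in a minority of cells in both libraries. Cxcl2 had a UMI in 20.6% of saline and 45.3% of NP cells, and at least 10 UMIs in 2.27% and 18.4%. Ccl4 had a UMI in 12.3% and 22.8%. Cxcl9 was seen in 1 saline cell (0.189%) and in 27 NP cells (3.70%). Its sum in the NP library thus came from few cells.

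Cells with Cxcl9 or Cxcl10 were 8 in saline (1.52%, 0.656 to 2.96) and 55 in NP (7.54%, 5.73 to 9.71). In NP their median was 21 UMIs of GBPs and IRGs, against 4 in the other NP cells, and 135 of class I genes, against 95. Their median of Ly6c2 was 11, against 10 in the rest. The 8 saline cells had a median of 10.5 UMIs of GBPs and IRGs, against 2 in the other saline cells. Their median of class I genes was 98, against 73, and that of Ly6c2 6.5, against 4. These are values of cells within each library and were not tested.

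The genes lower in NP were also uneven. Saa3 had a median of 2 UMIs in saline and 0 in NP, and reached 30 UMIs in 15.7% of saline and 5.08% of NP cells. Chil3 reached 30 UMIs in 10.98% and 0.549%. Apoe had medians of 31.5 and 11 UMIs, Ifngr1 of 7 and 4, and Lrg1 of 3 and 0. Cells with high Saa3 or Chil3 were thus more common in saline, while Ifngr1 differed over the bulk of the cells. Ccr2 had medians of 17 and 16 UMIs, F13a1 of 5 and 6, and Fn1 of 7 in both.

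**Figure D3:**
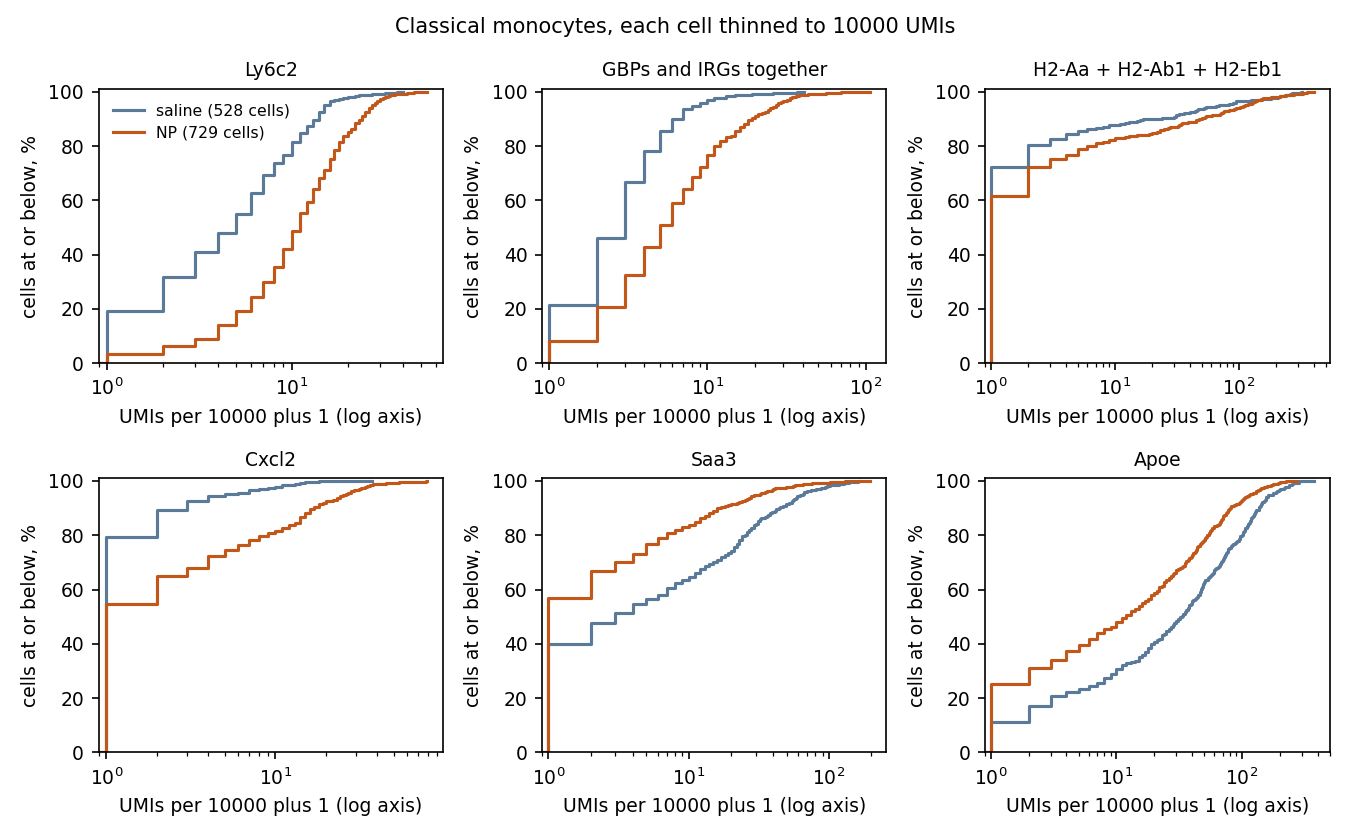
Each curve gives the percentage of classical monocytes (vertical axis) with at most a given count (horizontal axis, UMIs per 10000 plus 1, log axis), for 528 saline cells (blue) and 729 NP cells (orange). The NP curve lies to the right for Ly6c2, with medians of 4 and 10, starts lower for Cxcl2, where 45.3% of NP and 20.6% of saline cells had a UMI, and lies to the left for Saa3 and Apoe.

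Since Ly6c2 itself differed, the cells were set side by side within ranges of its count. At 0 to 2 UMIs there were 217 saline cells (41.1%) and 64 NP cells (8.78%), and at 3 to 9 there were 213 and 292 (40.3% and 40.1%). At 10 to 19 there were 87 and 264, and at 20 or more 11 and 109 (2.08% and 14.95%). The libraries thus held like shares of cells in the second range and differed at both ends.

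Class I genes, Cxcl2, and GBPs with IRGs had higher means in NP in each range. The range of 20 or more had only 11 saline cells. Class I genes had means of 79.1 in saline and 106 in NP at 0 to 2 UMIs of Ly6c2, of 73.9 and 99.5 at 3 to 9, and of 73.3 and 102 at 10 to 19. Cxcl2 had means of 0.876 and 5.61 at 0 to 2, of 0.601 and 4.97 at 3 to 9, and of 0.828 and 4.59 at 10 to 19. The ratio of GBPs and IRGs was seen in all 4 ranges, from 2.52 and 5.02 at 0 to 2 to 4.55 and 9.54 at 20 or more. For Saa3 the gap was widest in the cells with least Ly6c2, at 20.2 and 4.02, and narrower at 10 to 19, at 7.29 and 5.09. Chil3 was at 12.1 and 2.19 in the lowest range and at 6.53 and 5.46 at 10 to 19. Apoe was at 68.1 and 43.6 in the lowest range and 29.5 and 24.7 at 10 to 19. At 20 or more Saa3 and Apoe were the other way round, at 0.636 and 6.51 for Saa3 and 22.2 and 29.9 for Apoe, and the type I interferon list was at 132 and 122. F13a1, higher in NP over all cells, was not higher within any range, at 3.88 and 3.05, 5.97 and 5.97, 8.03 and 7.27, and 8.55 and 7.86 from the lowest range to the highest. Vcan at 0 to 2 was at 0.963 and 0.453, and Cxcl9 at 0.0415 and 0.0156. At 0 to 2 the class II chains were at 18.5 UMIs in saline and 70.7 in NP. They were at 9.30 and 13.6 at 3 to 9, at 1.68 and 8.62 at 10 to 19, and at 0.0909 and 10.7 at 20 or more. The cells compared thus also differed in class II in each range, and its part in the gap of Saa3 was not tested.

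**Figure D4:**
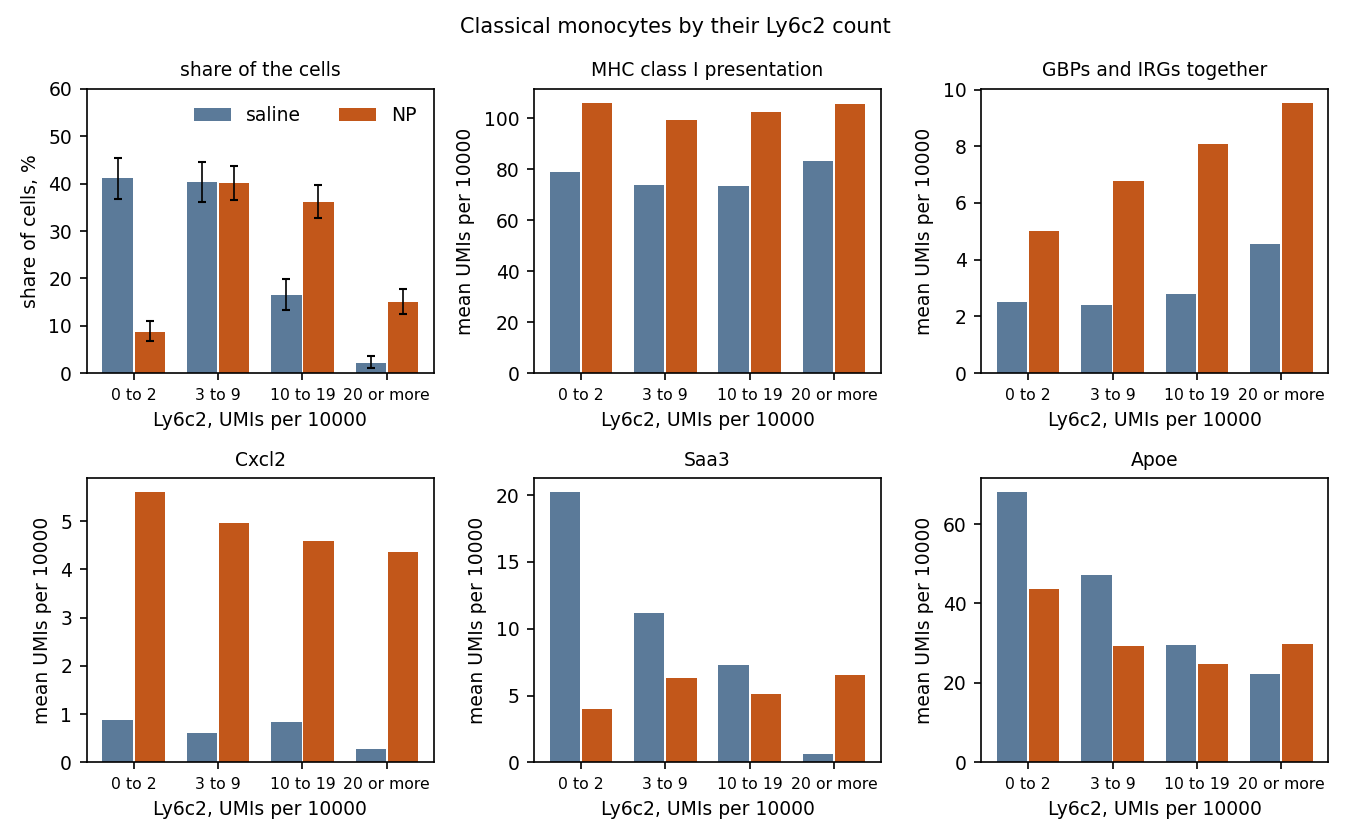
Classical monocytes are split by their Ly6c2 count in UMIs per 10000 (horizontal axis), in saline (blue) and NP (orange). The first panel gives the share of cells in percent with exact binomial 95% intervals, and the other panels give the mean UMIs per 10000 of a gene or list, without replicates. Class I and Cxcl2 are higher in NP in each range, and Saa3 falls from 20.2 to 0.636 across the ranges in saline while it stays between 4.02 and 6.51 in NP.

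Most class II counts were in few cells. H2-Aa, H2-Ab1 and H2-Eb1 together had no UMI in 381 of 528 saline and 449 of 729 NP cells, 1 to 9 in 82 and 155, and 10 to 29 in 15 and 30. At least 30 UMIs were found in 50 saline cells (9.47%, 7.11 to 12.3) and 95 NP cells (13.03%, 10.7 to 15.7), and these intervals overlap. Those cells held 93.0% of the class II UMIs in saline and 91.7% in NP. Their mean class II count was nearly equal in both libraries, at 114 and 115 UMIs.

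The cells rich in class II had less of the other markers. Fn1 had a mean of 4.94 UMIs in saline and 2.51 in NP in them, against 10.0 and 11.3 in the cells with no class II UMI. F13a1 was at 1.86 and 1.76, and Ly6c2 at 2.56 and 8.46 against 5.76 and 11.8. The dendritic cell genes Flt3, Zbtb46, Cd209a and Clec9a, which the rule limited, summed to 0.120 and 0.0947 UMIs per cell. Between the libraries, GBPs and IRGs in them were at 2.44 and 10.0 UMIs, class I genes at 102 and 140.4, and Apoe at 82.7 and 61.1. Saa3 in these cells was at 4.36 in saline and 6.23 in NP, the reverse of the cells without class II, where it was at 15.7 and 5.51.

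The same ratios in the other monocytes of these libraries are given side by side, without a test of any difference. Intermediate monocytes, which met the rule but held at least 2 UMIs of Ace, Treml4 and Cd300e, were 194 cells in saline and 461 in NP. Non-classical monocytes were 40 and 293, and the 40 saline cells held only 290234 UMIs. The median log2 ratio of GBPs was 1.57 in classical, 2.40 in intermediate and 2.21 in non-classical monocytes, and that of class I genes 0.51, 0.68 and 0.58. Stefins and S100 proteins were at -0.65, -0.76 and -0.55. These lists had the same sign in the 3 sets.

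Single genes were less alike. Ly6c2 had a log2 ratio of 1.07 in classical, 1.43 in intermediate and 2.74 in non-classical monocytes, the last from 2 UMIs in saline, set to 3, and 184 in NP (interval 1.45 to 6.38). Cxcl2 was at 2.74, 1.90 and 5.10, with only 5 UMIs in the non-classical saline cells. Apoe was at -0.89, -0.98 and -1.02 and Chil3 at -1.15, -1.53 and -1.51. Saa3 had the opposite sign in non-classical monocytes, at 3.07 from 17 and 1314 UMIs, against -1.27 and -0.82 in the others. The NP library had ratios for Cd274 of 2.27, 1.52 and 1.22 in the same order.

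**Figure D5:**
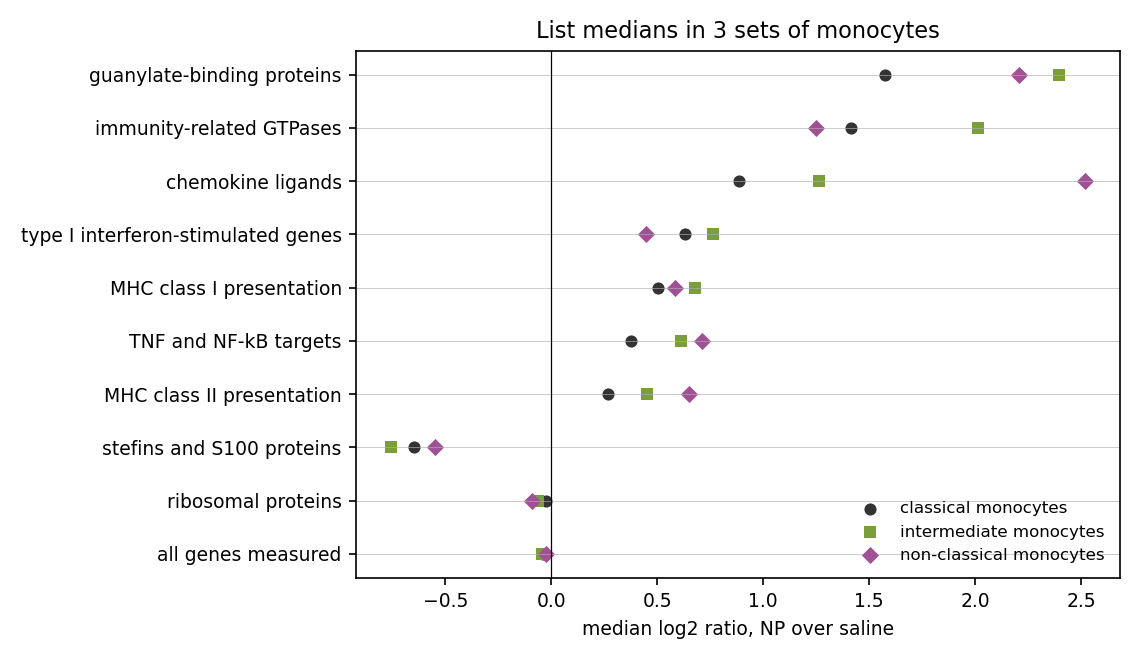
Median log2 ratio of NP over saline (horizontal axis) of the measured genes of each list (vertical axis) in classical (circles), intermediate (squares) and non-classical monocytes (diamonds). In classical monocytes GBPs are at 1.57 and stefins and S100 proteins at -0.65, and the median of all genes is near 0 in the 3 sets.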

How the data were processed

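Lung cells of 1 saline and 1 NP library were captured on the 10x platform. The authors deposited raw UMI counts per gene and barcode. The submitters' processing notes name bcl2fastq, Cell Ranger 6.0 and mm10, while the file headers name Cell Ranger 4. Positions were taken from GENCODE M21 (GRCm38), in which 32235 of 32285 gene identifiers were found (99.8%). Counts were summed over member cells per library and scaled to CPM. Log2 ratios set counts under 3 to 3, with exact binomial 95% intervals that cover counting error only, since cells are not replicates. Genes with at least 100 UMIs were measured. Named genes are those of the cell rule, the lists, and the 15 highest and 15 lowest ratios among genes with at least 200 UMIs and no more than 20% of a library's UMIs of the gene in 1 cell, where that library held at least 20. Some genes under this rule are not reported here. The members and lists were chosen with earlier results of these data known. The ratios were tested on simulated data of 8546 genes, 200 of them changed, where the intervals held the true ratio for 95.5% of genes. Free RNA was read from barcodes under 50 UMIs. B cells were cells with at least 3 UMIs of Cd79a and Cd79b and none of Csf1r. Per-cell values were thinned to 2000 UMIs, or to 10000, a depth chosen after seeing the data. Doublets were kept. Scrublet called 1 of 8662 saline cells (0.0115%), so it did not work there, and 313 NP cells (3.76%), of which 30 were members. RefSeq promoters (GRCm38.p6) were searched on both strands. Other settings for the cell rule, scaling, minimum count, free RNA, thinning and other-lineage cells were tried. Scrublet was that of scanpy 1.11.5, and the scripts ran on Python 3.11.15 with scipy 1.17.1, pandas 2.3.3 and numpy 2.4.6.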

Additional observations from a re-analysis of the deposited data

How the results depend on the processing

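No paired analysis was possible because each group was 1 library. Of 579 values under 21 other settings none reversed, while 23 list medians or counts and 60 values of single genes moved past the limits set, and 5 values of single genes fell short of the fold. The log2 ratio of the share of classical monocytes stayed between 0.42 and 0.62. The median of stefins and S100 proteins was -1.12 with S100a8 and S100a9 under 1%, -1.18 without Scrublet doublets, -1.03 without cells over the NP threshold of Scrublet in both libraries (chosen after seeing the data), -0.95 without cells holding 3 UMIs of another lineage, -1.15 as a mean of per-cell CPM and -0.19 with free RNA subtracted, scaled to 0.723% and 0.677% of UMIs, which is above the bounds given by Camp. Removing cells with other-lineage UMIs left 182 saline and 235 NP cells and gave medians of 2.17 for GBPs, 0.18 for type I interferon genes (27 of 36 genes still measured), 0.64 for class I, 0.44 for class II and 1.46 for chemokines, and 22 lower genes. Before this removal 322 saline and 423 NP members held at least 3 UMIs of the neutrophil markers, led by Mmp8, which may be the monocytes' own. GBPs were at 1.17, under the 1.43 of IRGs, with Ace, Treml4 and Cd300e at 0. A minimum of 20 UMIs gave 234 higher and 171 lower genes, GBPs at 2.15 and chemokines at 1.95. A minimum of 300 UMIs gave 37 and 18, and thinning to 2000 UMIs 22 and 17, with chemokines at 1.19. In intermediate monocytes with 3 UMIs of Ace, Treml4 and Cd300e the stefins and S100 proteins were at -0.60. Single genes near the fold crossed it, with Lrg1 at -0.98 (mitochondrial limit of 5%), -0.97 (Ace, Treml4 and Cd300e at 0) and -0.97 (centred ratios), and Tap1 at 0.95 and Chil3 at -0.96 without other-lineage cells. The causes were not tested.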

Other observations

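Several groups of genes had nearly equal levels in the classical monocytes of both libraries. Cell cycle genes summed to 1155 CPM in saline and 1149 in NP, with a median log2 ratio of 0.01 over 16 of 23 measured and none past the fold, and Mki67, the proliferation marker, was at 17.5 and 17.6 CPM. Receptors for colony-stimulating factors and related cytokines had a median of -0.01 over all 8, with Csf2rb at 0.03, Csf2ra at -0.10 and Csf3r at -0.09. Glycolysis and hypoxia genes had a median of 0.08 over 18 of 20, and the highest were Hk2, a hexokinase, at 0.65 and Ndrg1 at 0.59. Of 12 progenitor genes 4 were measured, between 0.02 and 0.15, and Sox4 was counted 66 times in saline and 21 times in NP, under the limit. Ribosomal protein genes had a median of -0.02 over 78 of 80.

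Genes that dissociation of tissue induces had a median of 0.07 over 18 of 18, with Fos at 0.17, Egr1 at 0.41 and Fosb at -0.45. Nr4a1, an immediate early gene and a factor of non-classical monocytes, was at 545 CPM in saline and 728 in NP (log2 0.42), with medians of 4 and 7 UMIs per 10000. Among genes excluded from naming because 1 cell held over 20% of their UMIs in a library were the hemoglobins Hba-a1, Hba-a2, Hbb-bs and Hbb-bt, which were lower in NP, and Igkc, Serpina3g and Cdc20, which were higher.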
